A study of Mus musculus with 36 samples.

Results

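The microRNA (miRNA) pool of prostate lobes with Elac2 deleted in the epithelium was compared with that of lobes with the wild-type gene. The mice of this comparison were 30 weeks old and all carried the TRAMP transgene. The members were the miRNAs whose normalised count averaged 10 or more in the 6 libraries, and 553 of the 1963 miRNAs listed met this limit; 628 had no read in any of the 6. Just inside the limit were miR-7226-3p and miR-1933-3p, both at 10, and just outside were miR-5101 at 9.96 and miR-187-5p at 9.94. A normalised count is the reads of a miRNA divided by a size factor of its library. KO-TRAMP mice were labelled ELAC2-/- and TRAMP +/-, and WT-TRAMP mice were labelled ELAC2+/+ and TRAMP +/-. For comparison, mice labelled ELAC2+/+ and ELAC2-/- with no TRAMP allele (WT and KO) at 30 weeks, and WT-TRAMP and KO-TRAMP mice of 10 weeks, were also used. A537T-TRAMP mice, labelled ELAC2A537T and TRAMP +/-, carried a substitution in ELAC2, made by CRISPR-Cas9 in place of the prostate deletion, and were 30 weeks old. The strain was labelled C56NL/6N and the mice were males matched by litter. Ventral and lateral lobes were dissected, and each group gave 3 libraries. The series holds 36 libraries in 12 groups.

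Elac2 was deleted by a Cre recombinase under the probasin (Pb) promoter, which is active in prostatic epithelium, so the stroma, vessels and blood cells of the lobes keep the gene. The same promoter drives the SV40 T antigens of the TRAMP transgene, which start tumours in that epithelium. Whether WT-TRAMP mice carried the Cre was not given in the sources used here. ELAC2 trims the trailing end of precursor transfer RNAs, in nucleus and mitochondria alike. Most miRNAs are made by other enzymes: Drosha frees a hairpin from a primary transcript and Dicer cuts it into a duplex, 1 strand of which guides Argonaute to messenger RNAs. The seed, bases 2 to 8 of the mature miRNA, does most of the pairing with its targets. Mirtrons such as miR-877 are hairpins freed by splicing instead of Drosha. Clustered miRNAs are cut from 1 shared primary transcript, and the Dlk1-Dio3 region on chromosome 12 is an imprinted locus with a large such cluster, expressed from the maternal chromosome in embryo, brain and muscle.

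The mature sequences of the miRNAs on which the results turn are given 5′ to 3′ with the seed in capitals, from RefSeq on GRCm38.p6, which held 60 of the 66 miRNAs named. The first set holds miRNAs whose 3 KO-TRAMP libraries lay above all WT-TRAMP libraries, the last 4 of them from the Dlk1-Dio3 cluster.
miR-877-5p: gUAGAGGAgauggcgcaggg
miR-155-5p: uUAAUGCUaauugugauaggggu
miR-206-3p: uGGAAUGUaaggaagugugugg
miR-501-3p: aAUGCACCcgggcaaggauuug
miR-134-5p: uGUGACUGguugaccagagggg
miR-382-3p: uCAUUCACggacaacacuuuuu
miR-154-3p: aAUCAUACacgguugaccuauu
miR-409-3p: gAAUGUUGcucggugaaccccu
The second set lay below all WT-TRAMP libraries in the 3 KO-TRAMP libraries, and includes 2 pairs that share a seed.
miR-676-3p: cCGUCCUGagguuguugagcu
miR-196b-5p: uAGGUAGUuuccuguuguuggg
miR-3473e: gGGCUGGAgagauggcucgua
miR-3473b: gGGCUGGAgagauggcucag
miR-30a-3p: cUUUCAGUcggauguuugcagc
miR-30e-3p: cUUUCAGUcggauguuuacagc
The third set holds miRNAs for which library 16 of KO-TRAMP lay far from the other 2 KO-TRAMP libraries.
miR-499-5p: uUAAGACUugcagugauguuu
miR-1983: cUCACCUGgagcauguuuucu
miR-204-5p: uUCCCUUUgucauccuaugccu
miR-211-5p: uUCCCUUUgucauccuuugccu
miR-148a-3p: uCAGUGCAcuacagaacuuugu
miR-152-3p: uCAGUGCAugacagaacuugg
miR-3473e and miR-3473b had their first 18 bases in common, and miR-30a-3p and miR-30e-3p their first 17, so reads of these pairs may have been split or shared in counting and their values are uncertain.

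The 6 libraries held 11261059 to 17867885 miRNA reads and 899 to 1039 detected miRNAs. Libraries are named by the number in the deposited tables: 10, 11 and 12 for WT-TRAMP and 16, 17 and 18 for KO-TRAMP. Their groups rest on the names of the tables alone, and no value here checks the deletion, because the tables hold miRNAs and no Elac2 messenger RNA. The third library of each group stood close to a weighted mean of the other 2. Library 12 matched a mix of 43% of library 10 and 57% of library 11 with an SD of 0.08 on the log2 scale over 290 abundant miRNAs, and lay between them for 81.7% of these. Library 18 matched 31% of library 16 and 69% of library 17 with an SD of 0.17 over 316 miRNAs, and lay between them for 73.7%. Among mice of 30 weeks without TRAMP, WT library 21 likewise matched 33% of library 19 and 67% of library 20 with an SD of 0.13 and lay between them for 79.4% of 291 miRNAs, and KO library 24 matched 82% of library 22 and 18% of library 23 with an SD of 0.14. In the 9 other groups read, these 2 included, the SD of a library from the best mix of its partners ran from 0.13 to 0.86. The labels do not say that libraries 12, 18, 21 and 24 came from the same animals as their partners, and whether they are separate animals was not tested.

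Across the 6 libraries, no miRNA passed an adjusted p of 0.05 by limma, that is 0 of 553 (0%). The smallest adjusted p was 0.148. At an unadjusted p under 0.05 there were 104 miRNAs (18.8%), 57 higher (10.3%) and 47 lower (8.50%) in KO-TRAMP. All 3 KO-TRAMP libraries lay outside the range of WT-TRAMP for 140 miRNAs (25.3%), of which 74 were higher (13.4%) and 66 lower (11.9%). Without libraries 12 and 18, leaving 2 libraries a group, these were 87 (15.7%) and 78 (14.1%), and 6 miRNAs had an unadjusted p under 0.05. edgeR called 0 miRNAs, with 113 at an unadjusted p under 0.05, while DESeq2 called 48, of which 36 were higher. Scaling each library to its total moved the median difference of all miRNAs from -0.02 to 0.13 on the log2 scale, and the unadjusted 104 then split into 83 higher and 21 lower.

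This count rested on library 16. Without it, 172 miRNAs (31.1%) passed an adjusted p of 0.05, 95 higher (17.2%) and 77 lower (13.9%), and leaving out any other single library gave 0. Under total scaling these 5 libraries gave 184 calls, 136 higher and 48 lower. The 172 calls in turn rested on libraries 12 and 17: without library 12 as well 3 passed (miR-1983, miR-1199-5p and miR-449a-3p, the last 2 named after their values were seen), without library 17 as well 0, and without library 18 as well 88. Of the 172, the groups did not overlap with library 16 included for 88 (51.2%), which is 62.9% of the 140 without overlap. Library 16 lay within the range of the WT-TRAMP libraries for 51 of them (29.7%) and beyond WT-TRAMP on the other side for 33 (19.2%). By direction, 45 of the 95 higher (47.4%) and 43 of the 77 lower (55.8%) had no overlap with library 16 included. At an unadjusted p under 0.05 the count without library 16 was 268 (48.5%), 143 higher (25.9%) and 125 lower (22.6%). Over all 553 members library 16 lay within that range for 223 (40.3%). The median SD of a miRNA among the KO-TRAMP libraries was 0.41 on the log2 scale, against 0.25 among WT-TRAMP libraries. For pairs of KO-TRAMP libraries it was 0.20 for 17 and 18, 0.49 for 16 and 17, and 0.39 for 16 and 18. Libraries 12 and 18 stood close to mixes of their partners, which can lower the SDs that include them.

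**Figure D1:**
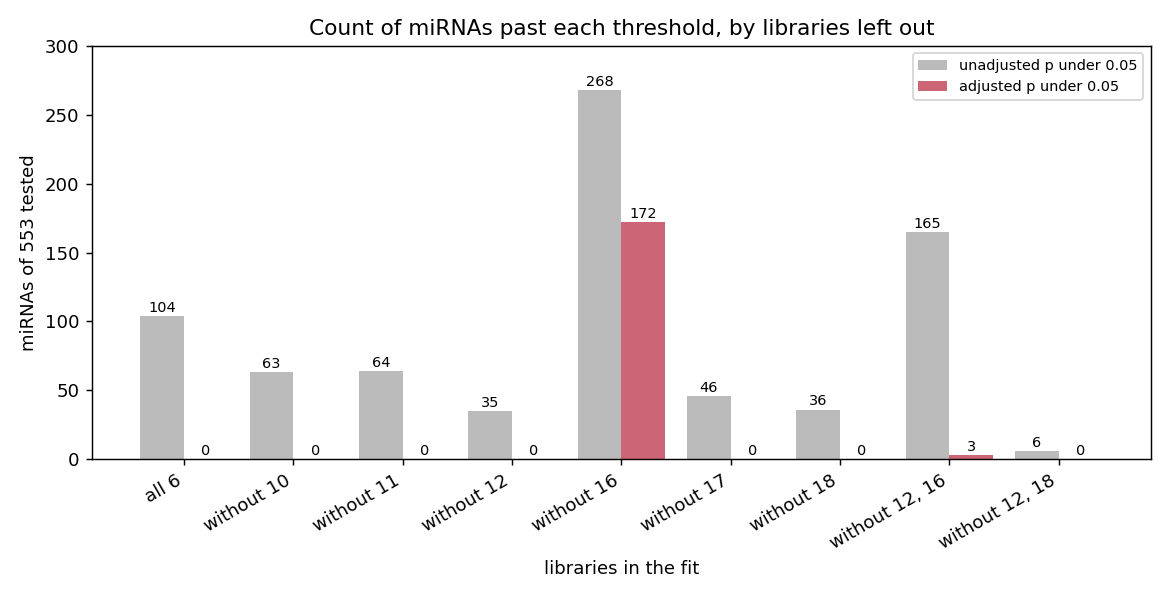
Bars give the number of the 553 miRNAs past an unadjusted p (grey) and an adjusted p (red) of 0.05 by limma, with the libraries named on the x axis left out. The adjusted count is 0 with all 6 libraries, 172 without library 16 and 3 without libraries 12 and 16.

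In the first principal component, which held 72.9% of the variance, library 16 (-20.1) lay beside WT-TRAMP library 11 (-21.3), and libraries 17 (24.8) and 18 (18.7) lay at the other end. WT-TRAMP libraries 10 (2.2) and 12 (-4.5) lay between. Both groups were thus spread along the same axis. Once library 16 is left out, the genotype and this axis cannot be told apart.

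**Figure D2:**
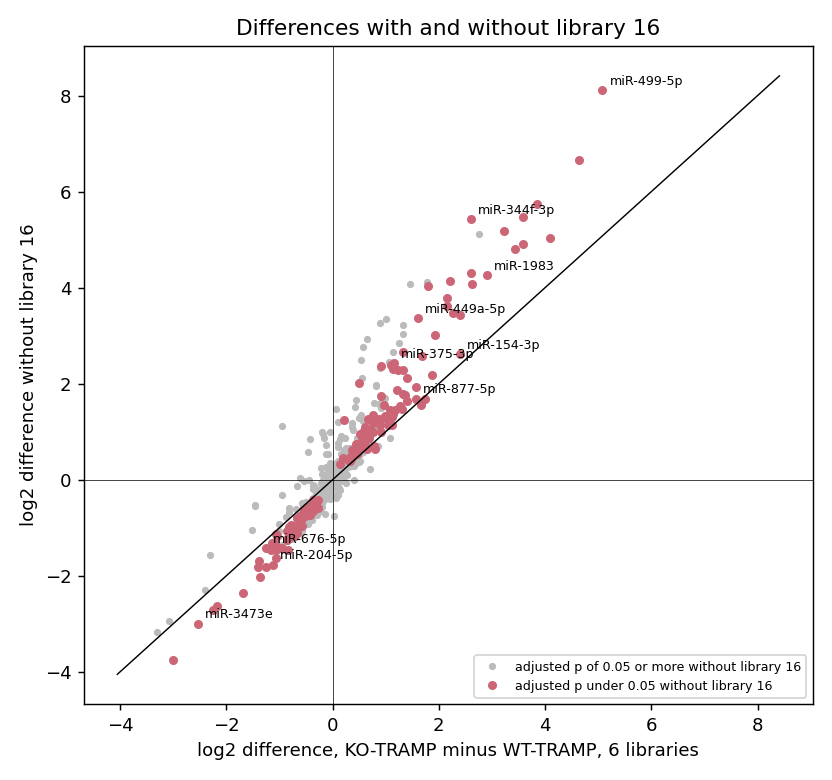
Each point is 1 of 553 miRNAs, with its log2 difference (KO-TRAMP minus WT-TRAMP) over the 6 libraries on the x axis and without library 16 on the y axis. Points in red are the 172 past an adjusted p of 0.05 without library 16, and the line marks equal values. miR-499-5p moves from 5.08 to 8.11 and miR-877-5p from 1.57 to 1.69.

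The miRNAs that separated the groups in all 6 libraries were led by miR-877-5p, a mirtron whose hairpin lies in an intron of Abcf1 at chr17:35960730-35960814 on the minus strand. Its normalised count was 27.4, 29.5 and 28.7 in WT-TRAMP libraries 10, 11 and 12, and 72.5, 98.4 and 90.8 in KO-TRAMP libraries 16, 17 and 18. Every KO-TRAMP library, library 16 included, was above every WT-TRAMP library, and the log2 difference was 1.57 ± 0.24 (SE, n = 3 libraries a group, unadjusted p = 0.000555 and adjusted p = 0.148 by limma). Without library 16 it was 1.69, with an adjusted p of 0.00885. The other arm of the hairpin, miR-877-3p, was sparse, at 9.97 to 24.1 in WT-TRAMP and 15.6 to 27.8 in KO-TRAMP, and the groups overlapped. In mice of 30 weeks without TRAMP, miR-877-5p was at 86.9, 79.6 and 82.9 in WT and at 62.9, 76.2 and 52.3 in KO. There KO lay below WT without overlap. In TRAMP mice of 10 weeks it was at 9.72, 10.9 and 9.36 in WT-TRAMP and 11.6, 8.46 and 4.14 in KO-TRAMP, with overlap.

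miR-155-5p, a miRNA of activated lymphocytes and macrophages, was at 971, 1142 and 1038 in WT-TRAMP and at 1657, 1702 and 1582 in KO-TRAMP. The KO-TRAMP libraries lay close together and all above WT-TRAMP, with a log2 difference of 0.65 ± 0.13 (adjusted p = 0.148 by limma, and 0.0244 without library 16). In mice of 30 weeks without TRAMP, KO also lay above WT without overlap, at 1233, 962 and 1122 against 422, 756 and 571. In TRAMP mice of 10 weeks it was at 174, 167 and 313 in KO-TRAMP and 228, 250 and 167 in WT-TRAMP, with overlap. The other leukocyte markers overlapped between KO-TRAMP and WT-TRAMP of 30 weeks. Of the 6 listed (miR-142a, miR-146a, miR-150, miR-155 and miR-223), miR-155-5p alone did not overlap (against 25.3% of all miRNAs). The summed level of these markers was 70067 to 94758 in WT-TRAMP. In KO-TRAMP it was 102146 in library 16, the highest of the 6 libraries, against 34751 and 49910 in libraries 17 and 18. In these whole lobes, fewer cells of a type and less RNA per cell cannot be told apart.

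miR-206-3p, a miRNA of skeletal muscle, was at 54.8, 131 and 117 in WT-TRAMP and 344, 279 and 282 in KO-TRAMP (log2 difference 1.66 ± 0.36, adjusted p = 0.148 by limma). The groups did not overlap, and library 16 was the highest. Of the 9 skeletal muscle markers listed, 6 were tested, miR-206-3p alone did not overlap (against 25.3% of all miRNAs), 3 passed an adjusted p of 0.05 as higher without library 16 (against 17.2%), miR-499-5p is described with library 16, and miR-208b-3p was at 0 in all 6 libraries. The summed level of the markers was 36476 to 63694 in WT-TRAMP and 26387 to 129150 in KO-TRAMP, lowest in library 16. miR-1a-3p, its most abundant marker, was at 32961 to 57931 in WT-TRAMP and at 23229, 115723 and 67913 in KO-TRAMP, with overlap.

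miR-20a-5p of the miR-17-92 cluster, whose members promote cell cycle entry, was at 5955, 3603 and 4648 in WT-TRAMP and 7012, 8180 and 7166 in KO-TRAMP. Its log2 difference was 0.68 ± 0.21 (adjusted p = 0.241 by limma) without overlap. Of the 20 members of miR-17-92 and its paralogues, 19 were tested, 5 lay above WT-TRAMP in all KO-TRAMP libraries (against 13.4% of all miRNAs) and 1 below (against 11.9%), and the median log2 difference was 0.09. miR-93-5p, which shares the seed AAAGUGC with miR-20a-5p, was at 18338 to 19097 in WT-TRAMP and 20825 to 24788 in KO-TRAMP. Of the 6 tested miRNAs with this seed, 4 lay above WT-TRAMP in all KO-TRAMP libraries (against 13.4% of all miRNAs), and 1 passed an adjusted p of 0.05 without library 16 (against 17.2%).

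**Figure D3:**
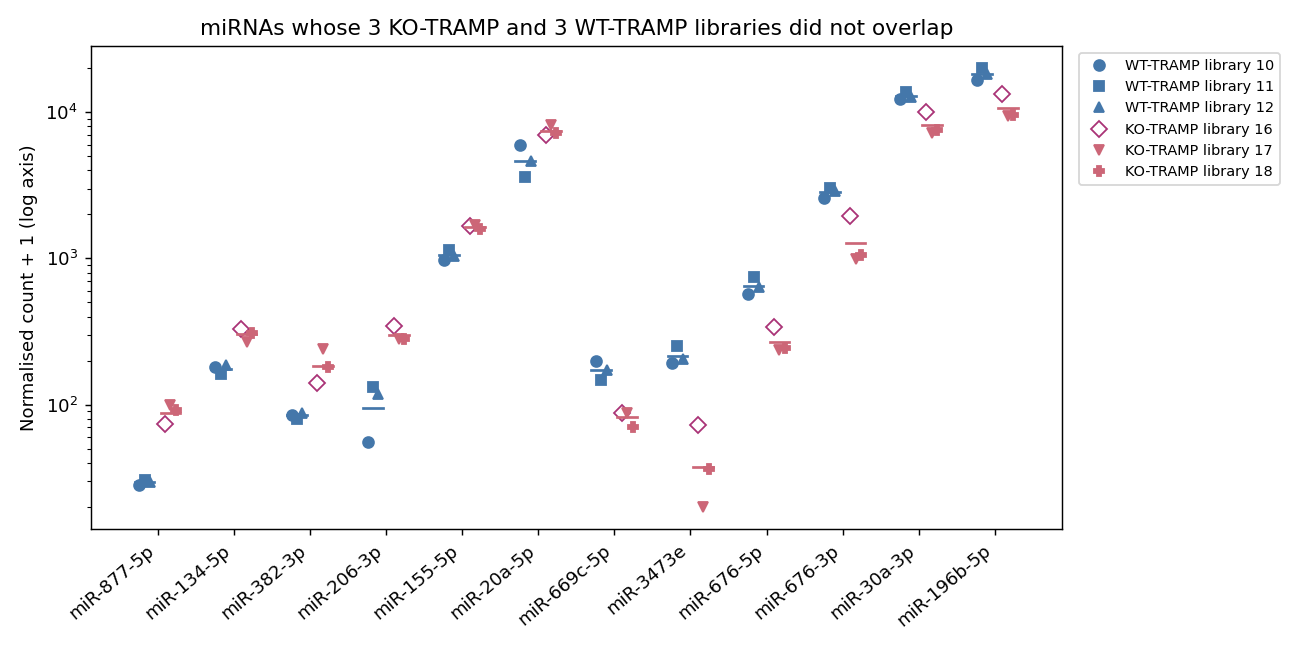
Normalised counts plus 1 on a log axis for 12 miRNAs whose groups did not overlap, with 1 point per library (blue WT-TRAMP, red KO-TRAMP, open diamond library 16) and bars at the mean of the log2 values. By this choice of miRNAs, library 16 lies on the KO-TRAMP side for all 12. For miR-3473e it lies at 71.3 against 19 and 35.2 in libraries 17 and 18.

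Of the lists examined, the Dlk1-Dio3 cluster had the most members apart. It has 100 listed members, of which 51 were tested. In KO-TRAMP 49 of the 51 had a mean above that of WT-TRAMP, 32 were above WT-TRAMP in every library (against 13.4% of all miRNAs), and 0 were below in every library. At an unadjusted p under 0.05, 27 were higher (against 10.3% of all miRNAs) and 0 lower. No member passed an adjusted p of 0.05 over 6 libraries by limma, by edgeR 0 passed with 28 at an unadjusted p under 0.05, where 113 of all 553 had such a p, and by DESeq2 13 passed, where 48 of all 553 did. The median log2 difference of the 51 was 0.61, where that of all 553 was -0.02.

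The summed normalised count of the Dlk1-Dio3 miRNAs was 15248, 19899 and 17544 in WT-TRAMP and 22725, 25632 and 24376 in KO-TRAMP. All 3 KO-TRAMP libraries, library 16 among them, lay above WT-TRAMP. Without library 16 the median was 0.69 and 23 members passed an adjusted p of 0.05 (against 17.2% of all miRNAs). Leaving out libraries 12 and 18 left the median at 0.57 and 33 members without overlap (against 15.7% of all miRNAs), though 1 had an unadjusted p under 0.05.

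Among its named members, miR-134-5p was at 180, 162 and 185 in WT-TRAMP and at 330, 268 and 309 in KO-TRAMP. Its log2 difference was 0.78 ± 0.17, and library 16 was the highest of the 6 (adjusted p = 0.148 by limma). miR-382-3p, whose hairpin lies in an exon of the non-coding gene Mirg, was at 84.8, 78.9 and 87.0 in WT-TRAMP and 140, 239 and 181 in KO-TRAMP. The difference was 1.12 ± 0.25 (adjusted p = 0.148 by limma, and 0.0151 without library 16). The groups were apart by more than the spread within WT-TRAMP, with library 16 the lowest of KO-TRAMP.

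miR-154-3p, from an intron of Mirg at chr12:109738433-109738498, had the largest difference of the named members at 2.39 ± 0.45. It was near the detection limit in WT-TRAMP, at 7.48, 4.21 and 2.78, and at 20, 33.5 and 31.9 in KO-TRAMP. Its other arm, miR-154-5p, overlapped, at 60.1 to 95.7 in WT-TRAMP and 54.8 to 119 in KO-TRAMP. The 2 arms of 1 hairpin therefore differed in whether they separated the groups. miR-409-3p was at 71.5, 94.7 and 87.0 against 128, 248 and 217 (difference 1.17 ± 0.31, adjusted p = 0.200 by limma), and its partner miR-409-5p was also without overlap (difference 1.27 ± 0.34). Both arms of miR-411, both arms of miR-329 and the 3p arm of miR-299a were likewise apart, with differences of 0.48 to 1.12.

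The most abundant member, miR-127-3p, from a hairpin antisense to an exon of Rtl1, was at 5069, 6778 and 5863 in WT-TRAMP and 7891, 7448 and 7752 in KO-TRAMP. The groups did not overlap, but the difference was small at 0.39 ± 0.15 (adjusted p = 0.255 by limma). By position, 9 of the 12 tested miRNAs with a RefSeq locus between chr12:109571990 and 109595388 lay above WT-TRAMP in every KO-TRAMP library. So did 20 of the 33 between chr12:109709060 and 109743795 (against 13.4% of all miRNAs for both). Both stretches held members with and without separation.

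**Figure D4:**
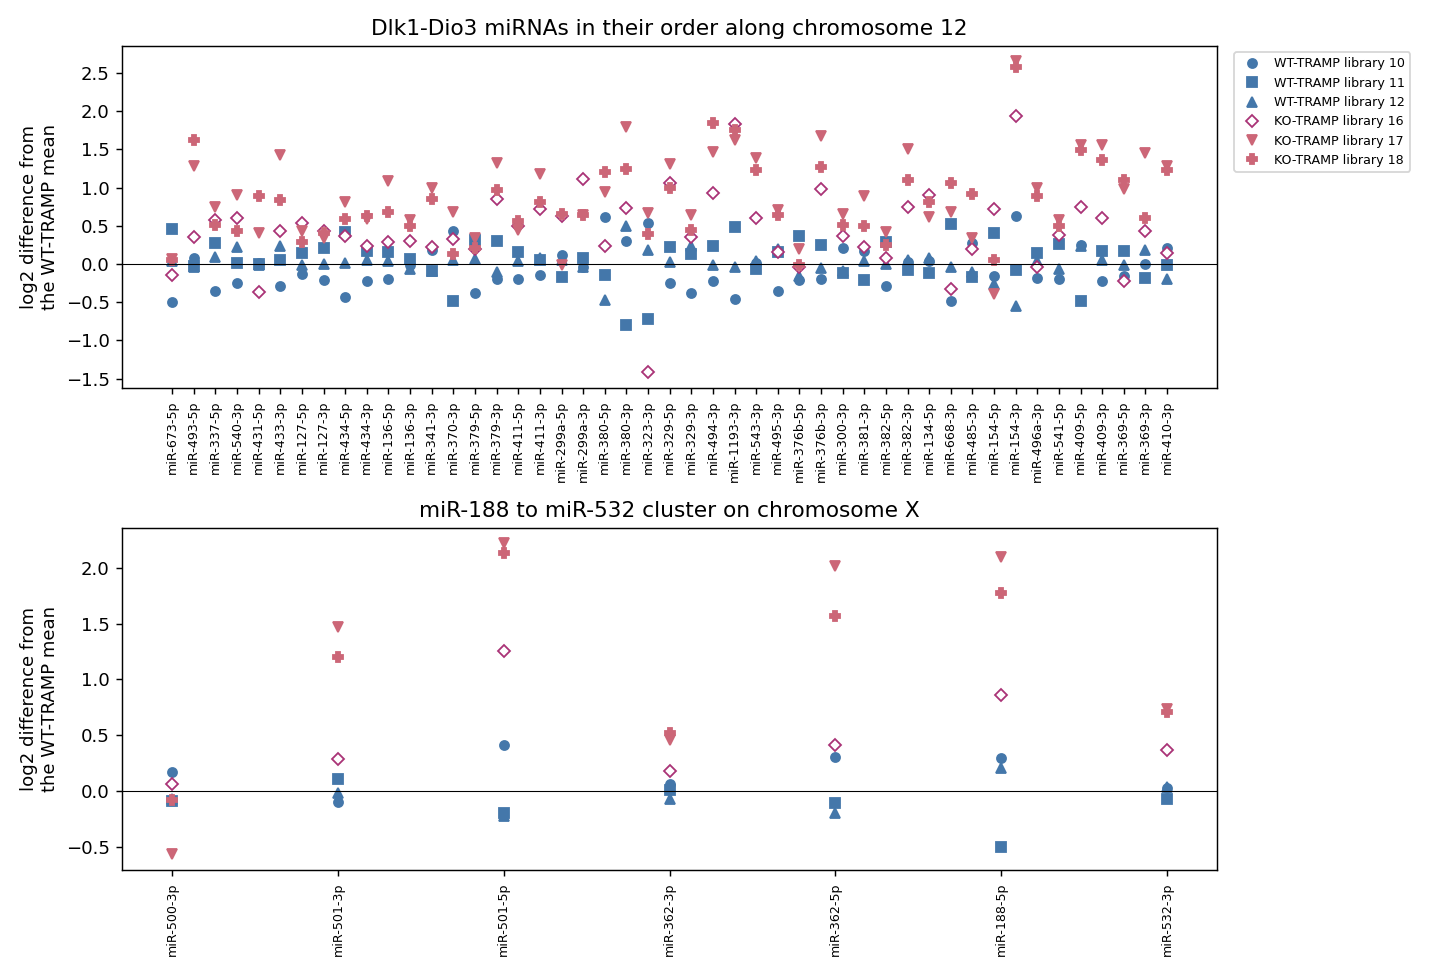
Log2 difference of each library from the mean of the 3 WT-TRAMP libraries, for 47 Dlk1-Dio3 miRNAs in their order along chromosome 12 (top) and 7 miRNAs of the X-linked cluster (bottom), with blue for WT-TRAMP, red for KO-TRAMP and an open diamond for library 16. Most red points lie above 0 along the whole Dlk1-Dio3 cluster, and library 16 lies between WT-TRAMP and libraries 17 and 18 for 6 of the 7 X-linked miRNAs.

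The KO difference of the Dlk1-Dio3 members was set against that in mice without TRAMP. In mice of 30 weeks without the transgene, the summed count was 16013, 47985 and 40858 in WT and 13985, 17689 and 14176 in KO, so that WT libraries 20 and 21 were high and WT library 19 lay within the KO range. The median log2 difference of the members was -1.14 there. The interaction of KO and TRAMP was positive at an unadjusted p under 0.05 for 38 of 50 members tested in both tables and negative for 0, where 20.7% of all 507 miRNAs had such a p. None passed an adjusted p of 0.05 by limma, and DESeq2 called 56 of the 507. Without WT library 19, 40 of the 50 passed, where 60 of all 507 did. That fit kept WT libraries 20 and 21. Library 21 stood close to a mix of 33% of library 19 and 67% of library 20. The high counts of libraries 20 and 21 may therefore not be separate measures, which was not tested. Without library 16, 9 passed, where 64 of all 507 did, in a fit that kept library 18, close to a mix of its partners. Leaving out libraries 12, 18, 21 and 24, which leaves 2 libraries a group, 3 of the 50 and 10 of all 507 had an unadjusted p under 0.05, 0 passed an adjusted p, and the median interaction of the members was 1.53 against 1.75 with all 12 libraries. For miR-134-5p the interaction was 1.82 (unadjusted p = 0.00624), and for miR-382-3p 2.29 (unadjusted p = 0.00402).

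At 10 weeks in TRAMP mice, the summed count was 15438, 16738 and 21653 in WT-TRAMP and 9447, 17898 and 13108 in KO-TRAMP, with overlap. The median log2 difference at that age was -0.60. The interaction with age was positive at an unadjusted p under 0.05 for 31 of 50 members (against 17.9% of all 458 miRNAs) and negative for 0. None passed an adjusted p of 0.05 by limma with all libraries, 13 passed without library 16, where 70 of all 458 did, and 8 without KO-TRAMP library 8 of 10 weeks, where 8 of all 458 did. Without libraries 12 and 18, 19 of the 50 and 36 of all 458 had an unadjusted p under 0.05, and 0 passed an adjusted p. In A537T-TRAMP mice of 30 weeks, which share the WT-TRAMP libraries and so give no separate evidence, the summed count was 18103 to 21989 against 15195 to 19208, and the median log2 difference of the members was 0.42.

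A second annotated cluster lies in introns of Clcn5 on the minus strand at chrX:7237683-7248497. Of its 7 tested miRNAs with a RefSeq locus, 6 lay above WT-TRAMP in all KO-TRAMP libraries (against 13.4% of all miRNAs). Of these 7, 5 were higher at an unadjusted p under 0.05 (against 10.3%). Without library 16, 6 passed an adjusted p of 0.05 as higher (against 17.2%). The median log2 difference was 0.98. miR-501-3p was at 680, 785 and 718 in WT-TRAMP and 884, 2009 and 1667 in KO-TRAMP. Library 16 lay just above WT-TRAMP, and the difference grew from 0.98 ± 0.32 (adjusted p = 0.241 by limma) to 1.33 without it (adjusted p = 0.00868). miR-532-3p was at 174, 162 and 175 against 220, 284 and 279 (difference 0.61 ± 0.18, adjusted p = 0.241 by limma). miR-500-3p, the exception among these 7, was named after its values were seen. It was at 160 to 192 in WT-TRAMP and 115 to 179 in KO-TRAMP. miR-532-5p, the other arm of miR-532-3p, was tested but was not among these 7, and its groups overlapped (log2 difference 0.42). Among 24 annotated clusters with at least 4 tested miRNAs, counted with gaps of at most 10000 bases, this cluster and the 2 stretches of Dlk1-Dio3 had the most members above WT-TRAMP.

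Among the miRNAs below WT-TRAMP, both arms of miR-676, from an intron of Eda on chromosome X, were apart. miR-676-5p was at 573, 745 and 632 in WT-TRAMP and at 341, 234 and 245 in KO-TRAMP. The log2 difference was -1.26 ± 0.22 (unadjusted p = 0.00108 and adjusted p = 0.148 by limma), with library 16 the nearest to WT-TRAMP. miR-676-3p was at 2601, 3019 and 2909 against 1945, 996 and 1052 (difference -1.16 ± 0.28), and passed without library 16 (adjusted p = 0.00766). The KO difference for miR-676-5p was 0.08 without TRAMP and 0.26 in TRAMP mice of 10 weeks, and the interactions had unadjusted p-values of 0.00144 with TRAMP and 0.000636 with age (adjusted p = 0.106 and 0.11 by limma).

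miR-3473e had the largest difference of the named lower miRNAs. It was at 191, 253 and 204 in WT-TRAMP and 71.3, 19 and 35.2 in KO-TRAMP (difference -2.53 ± 0.48, adjusted p = 0.148 by limma, and 0.00868 without library 16). Its near copy miR-3473b was at 274, 433 and 331 against 139, 36.9 and 70.3. In both, library 16 lay between the WT-TRAMP libraries and libraries 17 and 18. miR-669c-5p, of the repeat-rich miRNA families in an intron of Sfmbt2, was at 197, 146 and 173 in WT-TRAMP and 87.5, 87.2 and 69.5 in KO-TRAMP. Its difference was -1.07 ± 0.22 (adjusted p = 0.148 by limma). Library 16 did not stand apart. Of the 71 members of these families 15 were tested, 13 had a mean below WT-TRAMP and 3 were below it in every library (against 11.9% of all miRNAs), with a median of -0.58.

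miR-196b-5p, from the Hoxa9 region and a repressor of Hox messenger RNAs, was at 16518, 20031 and 18287 in WT-TRAMP and 13291, 9413 and 9477 in KO-TRAMP. Its difference was -0.78 ± 0.18 (adjusted p = 0.162 by limma, and 0.00909 without library 16). The miR-30 family was lower in part: of 11 tested members, 5 lay below WT-TRAMP in all KO-TRAMP libraries (against 11.9%), 4 were lower at an unadjusted p under 0.05 (against 8.50%), and the median was -0.36. miR-30a-3p was at 12256, 13758 and 12600 against 9983, 7225 and 7542 (difference -0.66 ± 0.16, adjusted p = 0.177 by limma). miR-30a-5p was at 158627 to 194554 in WT-TRAMP and 92120 to 141332 in KO-TRAMP, and miR-30c-2-3p was at 2331 to 2408 against 1160 to 1872. Under total scaling the family median was -0.20.

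Further miRNAs lay below WT-TRAMP without overlap. miR-328-3p was at 4972 to 5966 in WT-TRAMP and 2167 to 4041 in KO-TRAMP, and miR-99a-5p, among the most abundant, at 455802 to 489979 against 295789 to 389139. miR-29c-5p was at 708 to 750 against 348 to 593. The miR-29 family as a whole, which represses collagen genes, had a median of -0.37 over 7 tested members (-0.21 under total scaling), of which 1 lay below WT-TRAMP without overlap (against 11.9% of all miRNAs). miR-34b-3p and miR-34c-3p, arms of hairpins induced by p53, whose function SV40 large T antigen blocks, were also below WT-TRAMP. Of the 7 tested members of the miR-34 and miR-449 family, these were the 2 that lay below WT-TRAMP without overlap (against 11.9% of all miRNAs) and 1 lay above (against 13.4%), with a median of -0.07 (0.09 under total scaling). The other arm, miR-34b-5p, overlapped, at 89.4 to 229 in WT-TRAMP and 124 to 160 in KO-TRAMP. miR-34b-3p was at 300 ± 125 in WT-TRAMP and 140 ± 10.2 in KO-TRAMP (mean ± SD, n = 3 each, difference -1.01 ± 0.32, adjusted p = 0.241 by limma). The WT-TRAMP libraries were spread widely. miR-26a-5p and miR-26b-5p, which repress Ezh2, share a seed and were both lower: miR-26a-5p was at 621291, 741879 and 667544 against 583499, 386937 and 424165 (difference -0.56 ± 0.20, adjusted p = 0.255 by limma).

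Arms of 1 hairpin mostly differed in the same direction. Both arms were tested for 154 hairpins, and the log2 differences of the arms had the same sign in 125. In 66 of the 154 hairpins at least 1 arm was without overlap, where 25.3% of all 553 miRNAs, counted singly, were without overlap. A hairpin was counted if either arm was apart, so its share is not comparable with that of single miRNAs. Whether 66 exceeds the number expected from single miRNAs was not tested. Both arms were without overlap in the same direction in 13 hairpins, and in opposite directions in 0.

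In a further set of miRNAs, library 16 lay far from the other 2 KO-TRAMP libraries. miR-499-5p, made from an intron of the muscle myosin gene Myh7b, was at 53.2, 8.41 and 25.9 in WT-TRAMP, at 11.3 in library 16, and at 8549 and 5104 in libraries 17 and 18. Library 16 was thus at the level of WT-TRAMP while the other 2 KO-TRAMP libraries were far above. The difference of 5.08 ± 2.55 had an adjusted p of 0.316 by limma with library 16 and 0.00868 without it. Library 18 stood close to a mix of 31% of library 16 and 69% of library 17. Libraries 17 and 18 may therefore not be 2 separate measures, here and for the miRNAs below, which was not tested. miR-344f-3p was at 21.6, 1.05 and 11.1 in WT-TRAMP and at 0, 425 and 291 in KO-TRAMP. miR-1251-5p was at 36.6, 0 and 17.6 against 1.25, 339 and 277. miR-325-5p was at 241, 0 and 118 against 1.25, 627 and 425. For these last 3, WT-TRAMP library 11 was as low as library 16, and library 12 lay between 10 and 11.

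**Figure D5:**
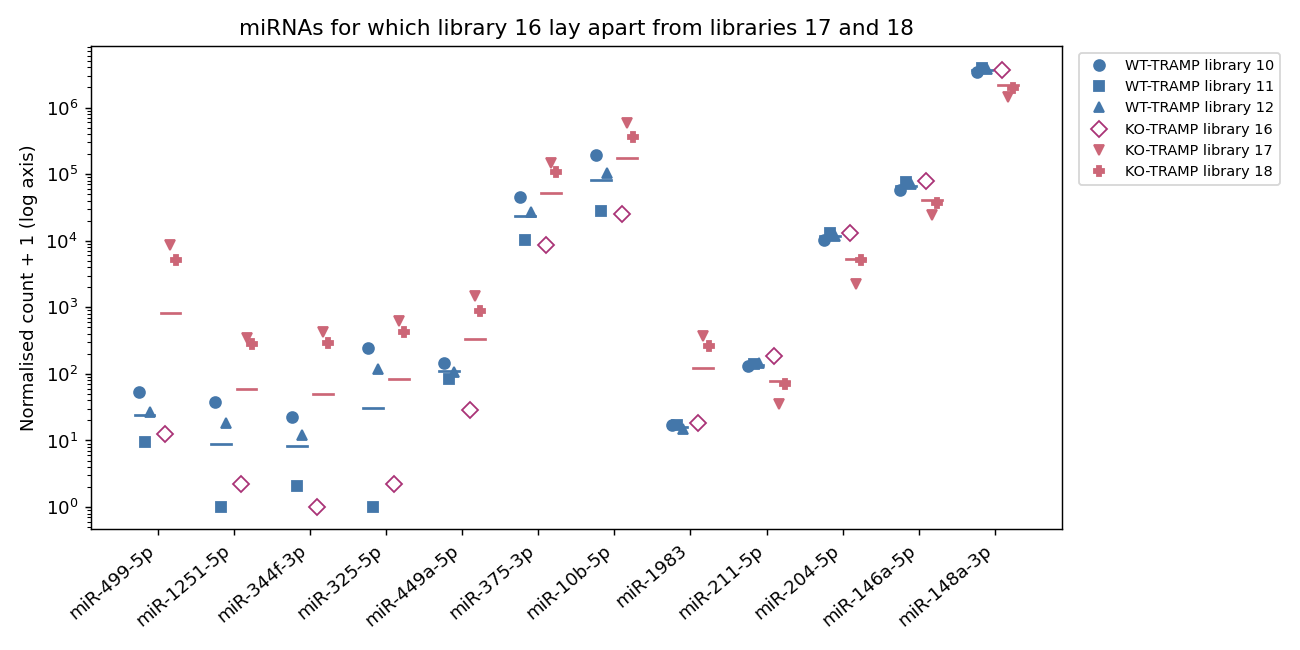
Normalised counts plus 1 on a log axis for 12 miRNAs in which library 16 (open diamond) lay apart from libraries 17 and 18 (red), beside WT-TRAMP (blue), with bars at the mean of the log2 values of each group. For miR-499-5p library 16 lies at 11.3 with WT-TRAMP at 8.41 to 53.2, while libraries 17 and 18 lie at 8549 and 5104.

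miR-449a-5p, of the miR-34 seed family and typical of ciliated cells, was at 146, 83.1 and 106 in WT-TRAMP and at 27.5, 1462 and 885 in KO-TRAMP, with library 16 below every WT-TRAMP library. miR-375-3p, a miRNA of neuroendocrine cells, was at 45582, 10287 and 26995 in WT-TRAMP and at 8764, 146417 and 107822 in KO-TRAMP. miR-10b-5p, from the Hoxd locus, followed the same order at 196755, 27599 and 104701 against 25390, 577195 and 361648. In each of these, library 16 was lowest, library 11 next and library 17 highest. Without library 16 the adjusted p was 0.00868 for miR-449a-5p, 0.0439 for miR-375-3p and 0.0794 for miR-10b-5p by limma.

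miR-1983, described as cut from a transfer RNA hairpin and annotated at chr13:21896918-21897049, was at 15.8, 15.8 and 13.9 in WT-TRAMP and at 17.5, 366 and 259 in KO-TRAMP. Library 16 lay just above WT-TRAMP, so the groups were apart by a small margin only. Without library 16 it had the smallest adjusted p of all, 0.00241 by limma, with a difference of 4.26. It passed also without libraries 12 and 16 (adjusted p = 0.0358 by limma), a fit that kept library 18, close to a mix of libraries 16 and 17. Without libraries 12 and 18, 0 of 553 miRNAs passed, and the smallest adjusted p was 0.98 by limma. Over 6 libraries the difference was 2.91 ± 1.13 (adjusted p = 0.258 by limma). Reads of transfer RNA fragments and of miR-1983 were not told apart here. miR-130b-3p (58.2, 41 and 50.9 against 46.3, 328 and 271) and miR-296-5p (52.4, 24.2 and 31.5 against 31.3, 448 and 340) showed the same pattern, with library 16 inside the WT-TRAMP range.

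In the other direction, miR-148a-3p, the most abundant miRNA of these lobes in WT-TRAMP, was at 3406376, 3933899 and 3758106 there, at 3670874 in library 16, and at 1432005 and 1947285 in libraries 17 and 18. Library 16 again lay inside the WT-TRAMP range, and the difference of -0.77 ± 0.36 over 6 libraries (adjusted p = 0.286 by limma) became -1.14 without it (adjusted p = 0.0139). miR-152-3p, of the same seed, did likewise at 90651 to 97088 in WT-TRAMP and 96248, 41875 and 54222 in KO-TRAMP. miR-204-5p and miR-211-5p, which share a seed, were at 13140 and 184 in library 16 against 2268 and 34.7 in library 17, with WT-TRAMP at 10231 to 13260 and 129 to 143. Of the KO-TRAMP libraries, library 16 alone lay at or above the WT-TRAMP levels of both.

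miR-221-3p and miR-222-3p, a pair on the X chromosome that represses the cell cycle inhibitor p27, both passed as lower without library 16 (adjusted p = 0.00868 for each by limma). miR-221-3p was at 11516 to 13108 in WT-TRAMP and at 10780, 5629 and 6528 in KO-TRAMP. miR-222-3p was at 4709 to 4982 in WT-TRAMP and at 4837, 2303 and 2609 in KO-TRAMP. let-7b-5p was at 128585 to 166045 in WT-TRAMP and 142287, 69097 and 72380 in KO-TRAMP, and of the 9 let-7 members 6 passed an adjusted p of 0.05 without library 16, all lower (against 13.9% of all miRNAs), while over 6 libraries 1 lay below WT-TRAMP without overlap (against 11.9%). miR-1291, which overlaps the small nucleolar RNA Snora34, was at 349, 429 and 356 against 340, 79.4 and 143. miR-6240 was at 125 to 158 against 140, 21.2 and 53.1. In each, library 16 lay in or next to the WT-TRAMP range.

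Summed levels of several cell type markers differed between the libraries, in orders that were not all the same. The smooth muscle markers miR-143 and miR-145a summed to 2898357, 1419963 and 2026149 in WT-TRAMP and to 787555, 4675136 and 3088815 in KO-TRAMP, lowest in library 16 and highest in library 17, and miR-21a-5p ran the other way, at 2574475 in library 16 and 968281 in library 17. The 8 neuroendocrine and neural markers summed to 123910, 67434 and 95824 against 80115, 264890 and 194997. The 5 markers of the miR-200 family of epithelium summed to 844573, 1177785 and 1037804 against 1123529, 793336 and 826456, highest in library 11 and next in library 16. Red cell markers summed to 4019 to 9243 in WT-TRAMP and to 2377, 5904 and 4896 in KO-TRAMP. Fibroblast markers of miR-199 and miR-214 summed to 105716 to 114875 in WT-TRAMP and 102999 to 126244 in KO-TRAMP, and the endothelial miR-126a to 123137 to 148392 against 114120 to 132102. The part of these markers in the results without library 16 was not tested.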

How the data were processed

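Small RNA from ventral and lateral lobes was sequenced on the Illumina NovaSeq with the TruSeq Small RNA kit. The authors merged read pairs with BBMerge, counted miRNAs with mirDeep2 on GRCm38 and miRBase, summed miRNAs of identical sequence, and divided counts by DESeq2 size factors. The deposited values are a signal, normalised counts per miRNA, and the authors' own comparison tables of fold changes were not used. Each value came back to whole reads (100% within 0.0001 of a whole number).

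The test was limma 3.58.1 in R 4.3.3 (trended variance) on log2 of the normalised count plus 1, two-sided, with Benjamini-Hochberg adjustment over 553 miRNAs and a threshold of 0.05. Differences are KO-TRAMP minus WT-TRAMP with SE from limma, and this scale understates changes of low miRNAs. edgeR 4.0.16 and DESeq2 1.42.0 were run on the recovered reads. Interactions used 12 libraries and differences within tables that were normalised separately. Loci are from RefSeq (450 of 553 members) and GENCODE on GRCm38. The steps were tested on simulated data. Columns matching no group numbered 0.

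The members and lists were chosen with earlier results of these data known. Named were up to 12 miRNAs a direction with the smallest p, no overlap and a mean of at least 100, the 5 smallest p of all, up to 6 a direction past the threshold without library 16, those in which library 16 lay farthest from libraries 17 and 18, leading members of each list, and other arms. Depth was 11261059 to 17867885 reads per library. Nothing in the columns ties libraries to single animals, so p-values measure the spread between these libraries.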

Additional observations from a re-analysis of the deposited data

How the results depend on the processing

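The count past an adjusted p of 0.05 was 0 with 6 libraries under edgeR (113 unadjusted), without the filter, at a mean of 100 or more, with a pseudocount of 10, total scaling, no variance trend and robust empirical Bayes. It was 48 by DESeq2, 51 in an edgeR fit of 33 libraries, and 400 with array weights (413 unadjusted), which gave library 12 a weight of 11.4, library 18 of 7.73 and library 16 of 0.111, and whose estimation stopped before it converged. Leaving out 1 library gave 0 to 172 adjusted and 35 to 268 unadjusted, and with a mean of at least 100, 68 of 337 were unadjusted. Chosen after seeing the data, leaving out libraries 12 and 16 gave 3 (165 unadjusted) and libraries 12 and 18 gave 0 (6 unadjusted). Likewise, for the interactions below, 10 were unadjusted without libraries 12, 18, 21 and 24 (TRAMP) and 36 without libraries 12 and 18 (age), with 0 adjusted in both. Without library 16, no filter gave 102 calls, edgeR 157, DESeq2 219, and leaving out 1 more library 0 to 188 calls (158 to 274 unadjusted). For the interaction with TRAMP, 0 of 507 passed (105 unadjusted), with 334 by array weights (349 unadjusted), 56 by DESeq2, 64 in the edgeR joint fit, 2 with no variance trend, 1 under total scaling, and 0 to 64 with 1 library left out (64 without library 16, 60 without 19, 14 without 23; 71 to 167 unadjusted). A mean of at least 100 gave 65 and no filter 162 unadjusted. For the interaction with age, 0 of 458 passed (82 unadjusted), with 170 by array weights (217 unadjusted), 21 by DESeq2, 8 in the joint fit, and 0 to 70 with 1 library left out (70 without library 16, 8 without library 8; 56 to 156 unadjusted). A mean of at least 100 gave 49 and no filter 134 unadjusted. Fewer libraries also give fewer degrees of freedom, and a lone KO-TRAMP library was assumed to vary like the others. The direction of the named miRNAs turned only where groups overlapped. Leaving out 1 library moved miR-325-5p from -1.01 to 4.08, miR-135a-2-3p from -0.53 to 3.26, miR-143-3p from -0.37 to 0.92, miR-21a-5p from -0.56 to 0.15 and miR-1a-3p from -0.13 to 1.03. miR-143-3p was at -0.07 without libraries 12 and 18, and miR-126a-3p at 0.03 under total scaling. The joint fit planned for 36 libraries used 33, since 1 table of KO and WT mice of 10 weeks did not come back to whole reads in each column. No paired analysis was possible because the columns carry library numbers and no replicate numbers of the labels. Low miRNAs such as miR-154-3p are limited by depth.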
